A study of Caenorhabditis elegans with 18 samples.

Results

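Gene expression was compared between whole hermaphrodites fed the RNAi plasmid M05B5.5, which targets hlh-2, and hermaphrodites fed the plasmid T14F9.5, which targets lin-32, both collected at an age of 1 day. The comparison takes every library whose source label names one of these plasmids and this age, which is 6 of the 18 libraries of the series, 3 per plasmid. All animals were Caenorhabditis elegans of the wild-type strain N2, so no group carries a mutation or a transgene, and each group is defined by its RNAi plasmid and its age. The other 12 libraries come from the empty feeding vector L4440 at an age of 1 day and from all 3 plasmids at an age of 5 days, again 3 libraries each. They are given beside the results where they help to read them. Nothing in the labels says that the 3 libraries of a group are separate cultures. The p-values therefore cover only the spread between these samples, which may be technical. Whole animals were sequenced, so fewer cells of a type and less RNA per cell cannot be told apart.

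HLH-2 is the worm's only E protein, a class I basic helix-loop-helix transcription factor. It binds E-box DNA as a homodimer or together with tissue-restricted class II partners such as LIN-32 and HLH-3 in neurons or HLH-8 in muscle. It is known for roles in neuron formation, in the anchor cell and distal tip cells of the gonad, and in muscle. LIN-32 is the atonal-type factor of several sensory neuron lineages, so the plasmids of this comparison target a common partner and 1 of its specific partners. In feeding RNAi the bacteria make double-stranded RNA of the target, which the worm takes up and turns into small RNAs that lower the matching transcript.

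The 6 libraries held 34191693 to 40752324 counts. Levels are given as counts-per-million (CPM), scaled together over all 18 libraries. A log2 fold change is always M05B5.5 minus T14F9.5 and is given with its standard error. It was fitted on the raw counts of the 6 libraries with edgeR's quasi-likelihood test, with Benjamini-Hochberg adjustment over 13770 tested genes and a threshold of 0.05. The T14F9.5 library numbered 2 stands apart from the other 5. The chi-square divided by its degrees of freedom, for its counts against each of theirs, was 92.3 to 126, against 4.8 to 13.8 among the other 5. Its levels also fell with gene length, by a slope of -0.239 in log2 CPM per doubling of length, against 0.024 to 0.087 in the others. The M05B5.5 libraries were run on lanes 3 and 4 and the T14F9.5 libraries on lanes 1 and 2, so at this age an effect of plasmid and one of lane cannot be told apart. Summed marker levels overlapped between the plasmids for oocytes and germ line, embryo and eggshell, intestine, body wall muscle, pharynx, epidermis, neurons and larval moult. The sum of 6 sperm markers did not overlap, at 0.291 to 1.45 CPM with T14F9.5 and 1.56 to 2.28 CPM with M05B5.5, and was 1.34 to 3.53 CPM with the empty vector. Among these 6, msp-3, msp-10 and msp-38 are major sperm protein genes. Only msp-3 did not overlap between the plasmids, while msp-10, msp-38, spe-11, gsp-3 and gsp-4 each overlapped.

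The targeted gene was lower in every library labelled M05B5.5. hlh-2 lies on chromosome I (WBcel235, 7190788 to 7193920, minus strand). It was at 12.7, 12.2 and 11.4 CPM with M05B5.5 and at 62.9, 54.5 and 65 CPM with T14F9.5. The groups did not overlap, and 19.9% of the T14F9.5 mean remained. The log2 fold change was -2.33 ± 0.10 (n = 3 per group, adjusted p = 0.000689), a 5.02-fold difference. The empty-vector libraries of the same age held 46.4, 23.7 and 53.9 CPM, all above the M05B5.5 libraries, with the second well below the other two.

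The target of the other plasmid gave no such sign. lin-32 was at 2.45, 2.18 and 1.96 CPM in libraries labelled T14F9.5. It was at 1.74, 2.57 and 1.83 CPM with the empty vector, and at 0.848, 1.8 and 1.52 CPM with M05B5.5. The libraries labelled T14F9.5 were thus not lower than the others in the transcript their plasmid targets, and each direction below is a difference from the libraries labelled T14F9.5. The log2 fold change of lin-32 was -0.64 ± 0.25 (edgeR, adjusted p = 0.956), with every M05B5.5 library below every T14F9.5 library. M05B5.3, the gene that the title of the series names where the samples name M05B5.5, differed by -0.03 ± 0.31 (edgeR, adjusted p = 0.988). Its neighbour plag-15, which lies between M05B5.3 and hlh-2, was at 24.3, 28.7 and 31.3 CPM with M05B5.5 and at 37.4, 47.2 and 37.4 CPM with T14F9.5. The groups of plag-15 did not overlap, but its difference of -0.54 ± 0.14 did not pass the test (edgeR, adjusted p = 0.804).

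Few other genes passed the test, and all that did were lower with M05B5.5. edgeR called 6 of the 13770 genes (0.0436%), and 5 of them (0.0363%) differed at least 2-fold. They were hlh-2, the arrestin-domain gene arrd-1, the F-box genes fbxb-38 and fbxb-42, the cystathionine gamma-lyase gene cth-1 and the pseudogene WBGene00010240. WBGene00010240 passed the filter on low counts through the T14F9.5 group alone. No gene was called higher by edgeR, while 463 genes (3.36%) had an unadjusted p under 0.05, of which 188 (1.37% of those tested) were higher. DESeq2 on the same counts called 59 genes (0.428%), 48 lower (0.349%) and 11 higher (0.0799%), and all 6 edgeR calls were among them. The edgeR count rested on all 6 libraries. Without the second T14F9.5 library 16 genes were called, and without any single one of the other 5 libraries hlh-2 alone was called.

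**Figure D1:**
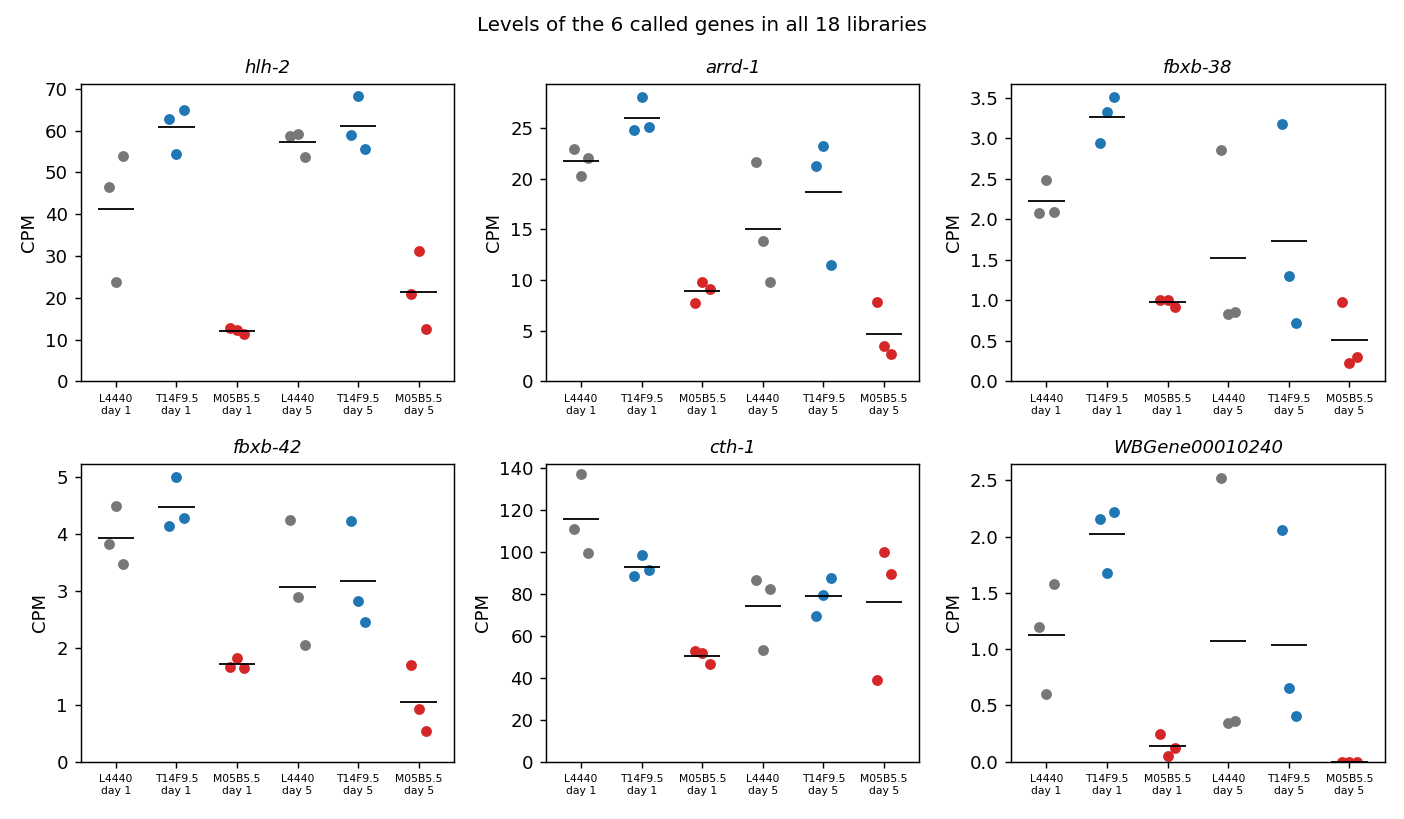
CPM of the 6 genes called by edgeR at day 1, one panel per gene, in all 18 libraries. Points are libraries, bars are means of 3, and the horizontal axis gives plasmid and age. In each panel the 3 day-1 M05B5.5 points lie below the 3 day-1 T14F9.5 points, and for cth-1 and fbxb-38 the day-5 groups of these plasmids overlap.

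arrd-1 encodes a protein with an arrestin domain, a fold of adaptors that act in receptor sorting. It lies on chromosome II (627505 to 628658, plus strand). Its levels were 7.71, 9.79 and 9.16 CPM with M05B5.5 against 24.8, 28.1 and 25.1 CPM with T14F9.5. The empty-vector libraries held 22.9, 20.3 and 22 CPM, close to the T14F9.5 libraries. arrd-1 fell by 1.55 ± 0.12 on the log2 scale (edgeR, adjusted p = 0.0169). Of 20 tested arrestin-domain genes arrd-1 was the 1 called, and the family's median log2 fold change was 0.01. arrd-2 also showed no overlap, at 14.2 to 16.1 CPM against 17.1 to 22 CPM, with a difference of -0.32 ± 0.12 (edgeR, adjusted p = 0.956).

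WBGene00010240, annotated as a pseudogene on chromosome IV (13183072 to 13186984), had the lowest level of the 6 called genes. It was at 0.246, 0.0506 and 0.124 CPM with M05B5.5, which is 9, 2 and 5 reads, and at 2.16, 1.68 and 2.22 CPM with T14F9.5. The empty-vector libraries held 1.2, 0.6 and 1.58 CPM. The fitted log2 fold change of WBGene00010240 was -3.44 ± 0.34 (edgeR, adjusted p = 0.0321). This value is not read as a result, because the gene passed the filter on low counts through the T14F9.5 group alone. WBGene00010240 and the genes named without an edgeR call were chosen after their values were seen, apart from lin-32, argk-1 and the member of highest CPM of a gene list. Next to it lies F58D2.3, with 1 read in each M05B5.5 library and 10, 21 and 17 reads in the T14F9.5 libraries. F58D2.3 too passed the filter through the T14F9.5 group alone. C48D1.1, the next gene called lower by DESeq2 on that chromosome, was at 7.49 to 8.42 CPM against 11.9 to 12.6 CPM (log2 fold change -0.60 ± 0.10, edgeR adjusted p = 0.19). Between WBGene00010240 and C48D1.1 lie F58D2.4 and F58D2.2, which differed by 0.23 ± 0.29 and -0.06 ± 0.26 and were not called. lev-1 and msh-5, on the other side of F58D2.3, differed by 0.20 and 0.02.

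**Figure D2:**
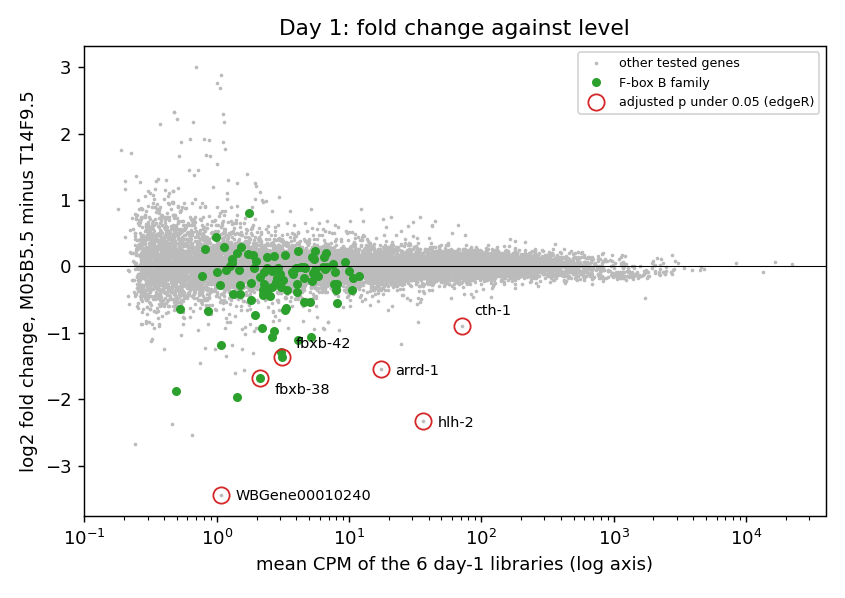
Log2 fold change at day 1 (M05B5.5 minus T14F9.5, vertical) against mean CPM of the 6 libraries (horizontal, log axis) for 13770 tested genes. Green points are the 95 tested F-box B genes and red rings the 6 genes called by edgeR. All ringed genes lie below 0, and hlh-2 stands at -2.33.

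Of the 50 gene lists examined, the F-box B family held most members that were lower without overlap. The genes encode a nematode-expanded family of proteins with an F-box, the motif that ties substrate receptors to SCF ubiquitin ligases. Many of them lie next to other members, and how similar their sequences are was not examined. How reads with several positions were counted is not given in the sources used here, so values of single members are uncertain. Of its members in the counts 95 were tested and 9 were not, and 94 of the tested ones were above the level of the filter in all 6 libraries. edgeR called 2 lower and none higher, where it called 0.0436% of all tested genes. DESeq2 called 10 lower, where it called 0.349% of all tested genes lower, and none higher, and without the second T14F9.5 library it called 6 members. At an unadjusted p under 0.05 by edgeR, which 3.36% of all tested genes reached in either direction, 27 were lower and 2 higher. All 3 M05B5.5 libraries lay below all 3 T14F9.5 libraries for 31 of the 95 (32.6%), where 4.49% of all tested genes did so. The reverse order was seen for 4 members (4.21%), against 3.73% of all tested genes. Without the second T14F9.5 library the share with no overlap was again 32.6%, against 10.3% of all tested genes. The median log2 fold change of the family was -0.15, against 0.00 over all genes (-0.003 before rounding), and moved to -0.02 without that library. The members lower with no overlap were thus a subset of the family.

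fbxb-38 (chromosome II, 2167691 to 2168763, minus strand) was at 1.01, 1.01 and 0.921 CPM with M05B5.5 and at 2.94, 3.33 and 3.51 CPM with T14F9.5. With the empty vector it was at 2.08, 2.49 and 2.09 CPM, between the other groups and overlapping neither. Its log2 fold change was -1.68 ± 0.14 (edgeR, adjusted p = 0.0169). fbxb-42 (chromosome II, 1537621 to 1538665, plus strand) was at 1.67, 1.82 and 1.64 CPM against 4.14, 5.01 and 4.29 CPM. The empty-vector libraries held 3.82, 4.50 and 3.47 CPM of it. Its log2 fold change was -1.36 ± 0.13 (edgeR, adjusted p = 0.0321).

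fbxb-42 is the middle of 3 F-box B genes in a row on the plus strand, and all 3 were lower. Upstream of it, fbxb-43 was at 1.31, 1.82 and 2.12 CPM against 4.40, 4.69 and 3.96 CPM (log2 fold change -1.29 ± 0.18, edgeR adjusted p = 0.148). Downstream, fbxb-44 was at 1.5, 1.72 and 1.79 CPM against 3.09, 4.36 and 3.19 CPM (-1.06 ± 0.17, edgeR adjusted p = 0.214). DESeq2 called both (adjusted p = 7.68e-06 and 0.00161). The gaps between the 3 genes are 315 and 224 bases. No other gene along the same stretch was called. Of its further F-box B genes, fbxb-52 differed by -0.28 ± 0.18, and fbxb-51, fbxb-54 and fbxb-50 by -0.07, -0.01 and -0.08. Between the row and fbxb-52, K05F6.4 was lower with no overlap (-0.44 ± 0.17, edgeR adjusted p = 0.956), while poml-4 and K05F6.12 differed by 0.49 ± 0.27 and -0.34 ± 0.22 with overlapping groups.

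The other members that DESeq2 called lay apart from this row. fbxb-65 on chromosome V was at 0.602, 0.632 and 0.423 CPM with M05B5.5 and at 1.92, 2.77 and 2.25 CPM with T14F9.5 (log2 fold change -1.97 ± 0.22, edgeR adjusted p = 0.0565). fbxb-104 on chromosome II was at 3.17, 3.72 and 3.19 CPM against 6.56, 7.69 and 6.80 CPM (-1.06 ± 0.12, edgeR adjusted p = 0.0634). fbxb-48, fbxb-6 and fbxb-35 on chromosome II and fbxb-70 on chromosome I differed by -0.97, -1.19, -1.1 and -1.88. Of these, fbxb-70 passed the filter on low counts through the T14F9.5 group alone. For fbxb-6 the empty-vector libraries, at 0.684, 0.814 and 0.931 CPM, lay near the M05B5.5 libraries, at 0.465 to 0.821 CPM, and below the T14F9.5 libraries, at 1.47 to 1.53 CPM. The member with the highest CPM, fbxb-7, was at 10.1 to 12.4 CPM against 11 to 15 CPM and differed by -0.15 ± 0.15. The highest member was fbxb-101, at 0.80 ± 0.21 (edgeR, adjusted p = 0.804). Summed over the family, the levels were 296, 346 and 331 CPM with M05B5.5 and 349, 419 and 358 CPM with T14F9.5. The empty-vector libraries spread from 292 to 445 CPM, over both.

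By chromosome, 55 of the 95 tested members lie on chromosome II, and 18 of these were lower with no overlap. On that chromosome 126 of the 2364 other tested genes (5.33%) were lower with no overlap. Chromosome III held 4 such members of 8, V held 4 of 15, I held 3 of 10, IV held 1 of 6, and the 1 tested member on X was lower. Of the other tested genes of III, V, I, IV and X, 3.51%, 5.41%, 3.65%, 3.88% and 3.62% were lower with no overlap. The F-box A family, a second expanded family, had 9 of 94 tested members lower with no overlap (9.57%), where 4.49% of all tested genes were. Its median was -0.03, with no edgeR or DESeq2 call. Its member with the highest CPM, fbxa-215, differed by -0.02 ± 0.08. The F-box C family had 9 of 32 lower with no overlap (28.1%), against the same 4.49%, a share close to the 32.6% of the F-box B family. Its median was -0.11, with no edgeR call. Its fbxc-24 was at 1.70, 2.07 and 2.66 CPM against 3.53, 3.6 and 4.15 CPM (log2 fold change -0.80, edgeR adjusted p = 0.551). In the opposite direction fbxc-40 was at 7.88, 8.73 and 8.21 CPM against 5.42, 5.66 and 6.11 CPM (0.52 ± 0.10, edgeR adjusted p = 0.344), and DESeq2 called it higher (adjusted p = 0.0462).

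A run of 4 neighbouring genes on chromosome V (16094584 to 16105952) was lower with M05B5.5. Along the chromosome it holds F22B8.7, the chemoreceptor-family gene str-7, cth-1 and argk-1. Only cth-1 passed edgeR, and DESeq2 called all 4. cth-1 encodes cystathionine gamma-lyase, the transsulfuration enzyme that releases cysteine from cystathionine. It was at 52.8, 51.6 and 46.4 CPM with M05B5.5 and at 88.6, 98.4 and 91.5 CPM with T14F9.5. It fell by 0.89 ± 0.09 on the log2 scale (edgeR, adjusted p = 0.0321), so 54.2% of the T14F9.5 mean remained. The empty-vector libraries were at 111, 137 and 99.6 CPM, above every T14F9.5 library.

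argk-1 encodes an arginine kinase, an enzyme that stores high-energy phosphate as phosphoarginine. It was at 16.5, 14.7 and 14.7 CPM with M05B5.5, at 29.8, 40.1 and 33.1 CPM with T14F9.5, and at 55.5, 108 and 44.1 CPM with the empty vector. The 3 groups did not overlap. Its log2 fold change between the plasmids, -1.17 ± 0.13, missed edgeR's threshold (adjusted p = 0.0634) and passed DESeq2's (adjusted p = 2.61e-11). The other tested arginine kinases lay close to 0, with F46H5.3 at 0.01 ± 0.08, W10C8.5 at 0.06 ± 0.11 and ZC434.8 at -0.18 ± 0.11. F46H5.3, the one with the highest CPM, was at 818, 845 and 816 CPM against 844, 781 and 828 CPM.

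str-7 was at 1.04, 1.19 and 0.971 CPM against 2.19, 1.97 and 2.41 CPM (log2 fold change -1.01 ± 0.15, edgeR adjusted p = 0.18). F22B8.7 was at 27.9, 29.2 and 26.4 CPM against 35.9, 42.9 and 37.6 CPM (-0.48 ± 0.10, edgeR adjusted p = 0.426). The gaps between the 4 genes, in order, are 504, 1139 and 1144 bases, and str-7 lies on the minus strand while the other 3 lie on the plus strand. Since the strand setting of the counting is not given in the sources used here, reads from str-7 and from its neighbours could be told apart only by position. The edges of the run are those of the DESeq2 calls. Beyond F22B8.7, WBGene00009047 and srj-29 differed by -0.49 ± 0.22 and -0.51 ± 0.27, as much as F22B8.7 itself, with overlapping groups and no call. The nearest tested gene on the other side, skr-3, differed by -0.03 ± 0.10. Of 16 tested genes of transsulfuration and glutathione synthesis, cth-1 included, cth-1 was the 1 called and the median was -0.05 (-0.04 over the other 15). The second cystathionine gamma-lyase gene, cth-2, differed by -0.11 ± 0.09.

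**Figure D3:**
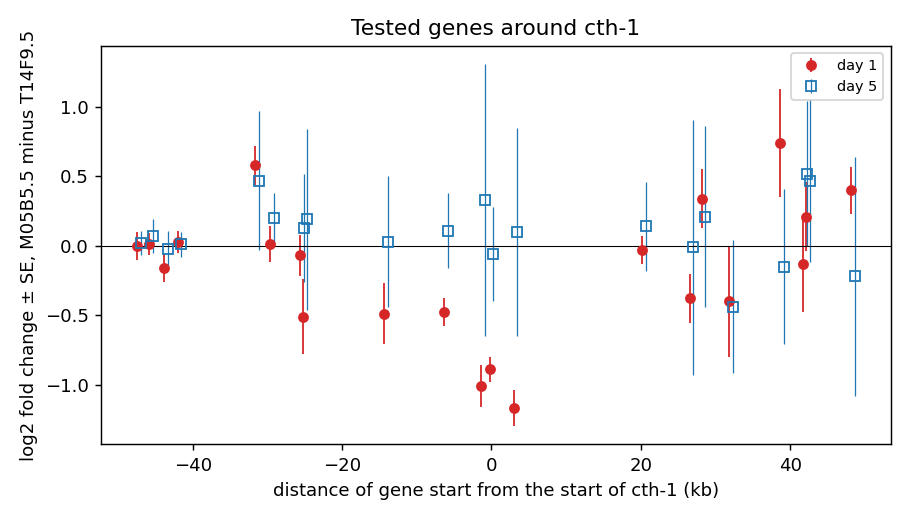
Log2 fold change ± SE (vertical) of the tested genes within 50 kb of cth-1, by distance of the gene start from that of cth-1 in kb. Filled red points are day 1 and open blue squares day 5. At day 1 str-7, cth-1 and argk-1 lie at -1.01, -0.89 and -1.17, and at day 5 at 0.33, -0.06 and 0.10.

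Genes lower with M05B5.5 often lay near each other. Of the 48 genes DESeq2 called lower, 18 (37.5%) had another of the 48 within 20 kb. Of 13621 other tested genes 232 (1.7%) had one of the 48 within that distance. Of the 48, F58D2.3, WBGene00010240, linc-12 and fbxb-70 passed the filter through the T14F9.5 group alone, and without these 4, which was tried after seeing the data, 13 of 44 (29.5%) had such a neighbour. The groups of neighbours were the run with cth-1, the row with fbxb-42, F58D2.3 with WBGene00010240 and C48D1.1, fbxb-35 with fbxb-6, arrd-1 with the pseudogene WBGene00020204, F22E5.20 with the noncoding linc-12, and F48E3.2 with F48E3.6. WBGene00020204 starts 1417 bases after arrd-1 ends and was at 1.20, 0.936 and 1.02 CPM against 2.13, 2.06 and 2.01 CPM. linc-12 was at 0.109, 0.152 and 0.0747 CPM against 0.554, 1.18 and 0.670 CPM. Its neighbour F22E5.20 was at 0.930, 1.14 and 1.12 CPM against 2.39, 3.33 and 2.36 CPM, again with no overlap. F48E3.6 on chromosome X was at 4.81, 6.12 and 6.4 CPM against 9.70, 11.3 and 12.4 CPM, a log2 fold change of -0.95 ± 0.15 (edgeR, adjusted p = 0.19).

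Single genes elsewhere were lower by DESeq2 and not by edgeR. lido-2 on chromosome X was at 4.70, 4.91 and 5.25 CPM against 8.97, 9.08 and 8.49 CPM (log2 fold change -0.83 ± 0.10, edgeR adjusted p = 0.0771). unc-30, the homeobox gene that sets the fate of GABA neurons of type D, was at 1.20, 1.16 and 0.996 CPM against 2.19, 2 and 2.25 CPM (-0.91 ± 0.14, edgeR adjusted p = 0.19). The empty-vector libraries held 1.54, 1.11 and 2.12 CPM of unc-30, from the range of one group to that of the other. tbb-4, a beta tubulin of ciliated sensory neurons, was at 0.465, 0.936 and 0.548 CPM against 1.81, 1.68 and 2.79 CPM (-1.61 ± 0.30, edgeR adjusted p = 0.288). The empty-vector libraries held 1.4, 0.986 and 2.2 CPM of tbb-4, the second just above the M05B5.5 libraries. At day 5 its T14F9.5 libraries spread widely, at 0.946, 20.3 and 4.78 CPM, against 0.606, 0.488 and 0.447 CPM with M05B5.5. Among 26 tested genes of cilia and intraflagellar transport none was called, and their median was -0.03.

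The day-5 libraries share no library with this comparison and let the same genes be read again. In the M05B5.5 and T14F9.5 libraries of day 5 edgeR called none of 13718 tested genes, and 135 (0.984%) had an unadjusted p under 0.05. The day-5 libraries numbered 1, in accession order within each plasmid, lay apart from the rest. In these, 5 body wall muscle markers summed to 1510 to 1640 CPM, and in the other day-5 libraries to 469 to 651 CPM. The day-1 libraries held 1100 to 1680 CPM of these markers, so the day-5 libraries numbered 1 lay within the day-1 range. The cause was not tested. Of the 6 genes called at day 1 all 6 had a log2 fold change under 0 at day 5, as did 46.7% of all tested genes. Of the 6, 4 were lower with no overlap at day 5, where 2.46% of all tested genes were. These were hlh-2, arrd-1, fbxb-42 and WBGene00010240. Both counts include hlh-2, the target of the plasmid, and WBGene00010240, which passed the filter through the T14F9.5 group alone. Neither of these 2 genes is read as a day-1 difference found again. hlh-2 was at 20.9, 31.1 and 12.5 CPM against 59.0, 68.4 and 55.6 CPM, a log2 fold change of -1.51 ± 0.33. arrd-1 was at 7.82, 3.53 and 2.66 CPM against 21.2, 23.2 and 11.5 CPM (-1.99 ± 0.48). fbxb-42 was at 1.70, 0.919 and 0.541 CPM against 4.23, 2.83 and 2.45 CPM (-1.55 ± 0.46). WBGene00010240 had no read in any M05B5.5 library of day 5 and 74, 23 and 16 reads in the T14F9.5 libraries. At day 5 too it thus passed the filter through the T14F9.5 group alone. fbxb-38 was at 0.981, 0.230 and 0.306 CPM against 3.17, 1.30 and 0.715 CPM, and its groups overlapped. With a term for the libraries numbered 1, tried after seeing the data, edgeR again called none at day 5, and 618 genes (4.51%) had an unadjusted p under 0.05. In that fit hlh-2 differed by -1.51 ± 0.38, arrd-1 by -2.11 ± 0.39, fbxb-38 by -1.68 ± 0.29, fbxb-42 by -1.61 ± 0.25 and cth-1 by -0.15 ± 0.23, with edgeR adjusted p of 0.59 to 0.974.

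One day-5 lane held libraries of both plasmids. The third M05B5.5 library shared lane 7 with the first and second T14F9.5 libraries. Within that lane its log2 difference from their mean was -2.35 for hlh-2, -3.06 for arrd-1, -2.87 for fbxb-38 and -2.70 for fbxb-42. For cth-1 it was 0.26. The first T14F9.5 library is one of those numbered 1, and against the second alone the differences were -2.46, -3.12, -2.09, -2.38 and 0.17 in the same order. These are single libraries, with no test.

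Of the 48 genes DESeq2 called lower at day 1, 46 were tested at day 5 and 38 (82.6%) had a log2 fold change under 0, against 46.8% of the genes tested at both ages. All 3 M05B5.5 libraries lay below all 3 T14F9.5 libraries for 17 of the 46 (37.0%), against 2.48% of the genes tested at both ages, and the reverse order was seen for none. The 46 and the 17 include hlh-2, the target itself. They also include WBGene00010240, linc-12 and fbxb-70, which passed the filter at day 1 through the T14F9.5 group alone. Both shares are therefore higher than the remaining genes alone would give. The 10 F-box B genes among the 46 were all under 0 at day 5, and 6 did not overlap, with fbxb-70 counted in both. Over the F-box B family 84 of 95 tested members were under 0 at day 5, as were 46.7% of all tested genes, and the median was -0.40. With no overlap, 17 (17.9%) were lower and none higher, against 2.46% and 1.70% of all tested genes. Of these 17, 15 were lower with no overlap at both ages. The share of all tested genes with that pattern was not computed, so this count is not read as a result. The F-box A family, with 103 members tested at day 5, had 30 under 0 and a median of 0.08. The F-box C family had 26 of 33 under 0, a median of -0.24 and 4 members (12.1%) lower with no overlap, against the same 46.7% and 2.46%.

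**Figure D4:**
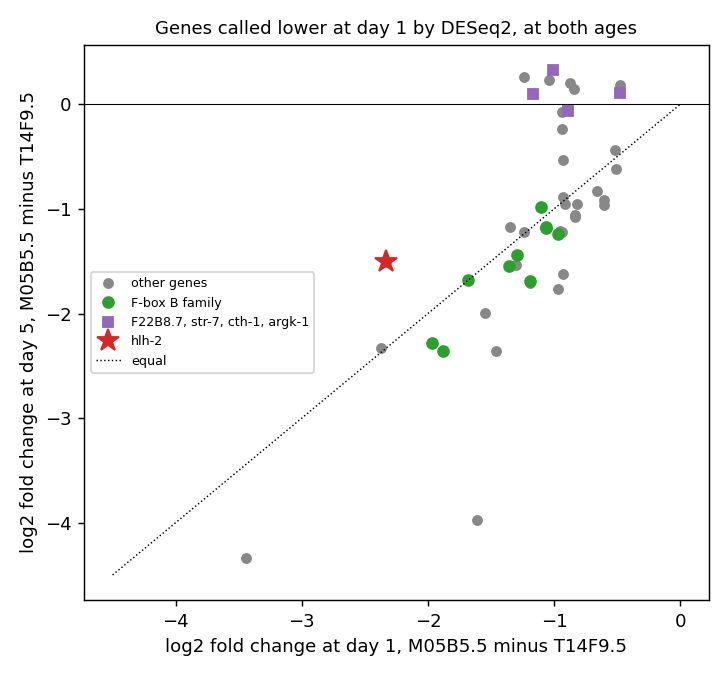
Log2 fold change at day 5 (vertical) against that at day 1 (horizontal), M05B5.5 minus T14F9.5, for the genes DESeq2 called lower at day 1 and tested at both ages. The dotted line marks equal values. Green F-box B genes lie at or near the line and all under 0 at day 5, while the 4 genes of the run with cth-1 (purple) lie between -0.06 and 0.33 at day 5.

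The run on chromosome V had no member below with no overlap at day 5, and its log2 fold changes were near 0 or above it. cth-1 was at 38.8, 100 and 89.2 CPM with M05B5.5 and at 69.6, 79.5 and 87.5 CPM with T14F9.5, a log2 fold change of -0.06 ± 0.34. argk-1 was at 8.63, 63.1 and 58 CPM against 18.1, 44.3 and 58.2 CPM (0.10 ± 0.75). str-7 was at 0.895, 13 and 10.4 CPM against 1.67, 7.52 and 10.1 CPM (0.33 ± 0.98). In all 3 the first library was below the other two in both groups, and the first M05B5.5 library was below the first T14F9.5 library. These first libraries are the ones whose muscle markers lay within the day-1 range. F22B8.7 differed by 0.11 ± 0.27. C14C6.5, clec-258 and hacd-1 had log2 fold changes of -0.84, -1.04 and -0.48 at day 1 and of 0.15, 0.23 and 0.19 at day 5.

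Whether the difference between the plasmids changed with age was tested over the 12 libraries of both ages. edgeR called none of 14418 genes for this interaction, 177 (1.23%) had an unadjusted p under 0.05, and DESeq2 called none. The interaction of cth-1, day 5 minus day 1, was 0.83 (edgeR, adjusted p = 1), and with the day-5 libraries numbered 1 left out it was 1.07 (adjusted p = 0.0761). Without them 1 gene was called, lin-32, at -3.90 (edgeR, adjusted p = 0.0357). At day 5 lin-32 was at 0.981, 0.201 and 0.141 CPM with M05B5.5, at 1.06, 4.92 and 5.29 CPM in those labelled T14F9.5, and at 0.952, 0.542 and 0.234 CPM with the empty vector. The libraries labelled T14F9.5 were thus the highest in lin-32 at that age.

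**Figure D5:**
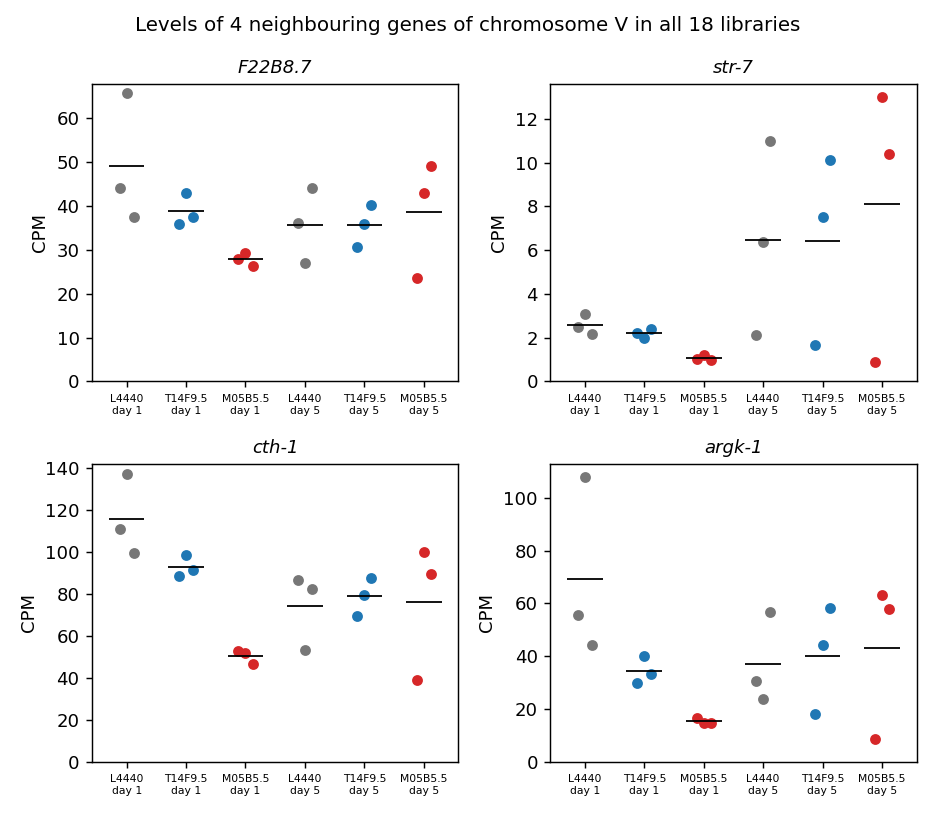
CPM of F22B8.7, str-7, cth-1 and argk-1 in all 18 libraries, one panel per gene. Points are libraries, bars are means of 3, and the horizontal axis gives plasmid and age. At day 1 the M05B5.5 points lie below the T14F9.5 points in every panel, and at day 5 the groups overlap in every panel.

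Genes higher with M05B5.5 were few and at low levels. DESeq2 called 11, of which 5 were major sperm protein genes, the cytoskeletal proteins of nematode sperm. None of the 31 major sperm protein genes was above the level of the filter in all 6 libraries, so their fitted changes are not counted here. Summed over the family, the levels were 14.4, 24.7 and 7.81 CPM with M05B5.5 and 1.95, 2.21 and 6.56 CPM with T14F9.5. The empty-vector libraries were at 6.07, 24.7 and 23.6 CPM. The first lay within the T14F9.5 range, near its top, and the others within the M05B5.5 range. msp-50 was at 1.89, 2.81 and 0.697 CPM against 0.233, 0.118 and 0.295 CPM. With the empty vector msp-50 was at 0.342, 2.66 and 2.28 CPM, above every T14F9.5 library. The summed sperm markers, given above, include msp-3, msp-10 and msp-38 and so share genes with this family. Of the summed markers only msp-3 did not overlap between the plasmids, while msp-10, msp-38, spe-11, gsp-3 and gsp-4 each overlapped. Of 12 tested genes on the list of sperm genes none was called, and the median was 0.17. With no overlap, 1 (8.33%) was higher and 1 (8.33%) lower, against 3.73% and 4.49% of all tested genes. The part of sperm genes in the result was not tested. C42D4.3 was at 1.72, 0.708 and 1.44 CPM against 0.0583, 0.118 and 0.161 CPM, with 0.114, 0 and 0.0282 CPM in the empty-vector libraries. Its T14F9.5 libraries held 2, 4 and 6 reads and its M05B5.5 libraries 63, 28 and 58, so it passed the filter through the M05B5.5 group alone and its fitted change is not used. gipc-1 was at 1.67, 2.4 and 1.27 CPM against 0.350, 0.206 and 0.750 CPM (1.88 ± 0.41, edgeR adjusted p = 0.509), and the empty-vector libraries ranged from 0.713 to 3.10 CPM. oac-14, of an acyltransferase family, was at 3.36, 3.79 and 4.90 CPM against 2.3, 1.3 and 2.17 CPM (1.04 ± 0.24, edgeR adjusted p = 0.552).

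Among the partners of HLH-2 no other gene was called. Of 27 class I and class II helix-loop-helix genes 13 were tested, hlh-2 was the 1 called, and the median was -0.01. hlh-3, an achaete-scute type partner, was at 9.49, 8.75 and 9.33 CPM against 6.59, 6.81 and 7.29 CPM, higher in all 3 libraries without passing the test (0.41 ± 0.10, edgeR adjusted p = 0.706). hlh-14, of the same type, was at 5.58, 6.70 and 7.32 CPM against 4.40, 4.72 and 5.57 CPM (0.41 ± 0.15, edgeR adjusted p = 0.956). Of 14 tested genes listed as targets of HLH-2 or its partner HLH-8 none was called, and the median was 0.01. The one with the highest CPM was lin-3, the epidermal growth factor of the anchor cell, at 65.6, 64.4 and 59.1 CPM against 66.7, 49.3 and 61.3 CPM. exc-9 was the 1 target lower with no overlap, at 4.13, 4.02 and 3.68 CPM against 4.81, 6.4 and 5.46 CPM (-0.49 ± 0.14, edgeR adjusted p = 0.939).

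Other gene groups held no edgeR call. The 11 subunits and regulators of AMP-activated kinase had a median of 0.07 and no member without overlap, and par-4, the one with the highest CPM, differed by 0.23 ± 0.26. The 36 tested genes of the RNAi machinery had a median of 0.05, with hrde-1 at 0.14 ± 0.21. Of 38 tested glutathione S-transferases, which conjugate toxins to glutathione, 7 (18.4%) were lower with no overlap, against the same 4.49%, and at day 5 none of 37 was, with 7 under 0 and a median of 0.17. Their day-1 median of -0.11 moved to 0.02 without the second T14F9.5 library, and gst-7, with the highest CPM, differed by -0.16 ± 0.15. Of 18 tested genes activated by DAF-16, the FOXO factor of insulin signalling, 5 (27.8%) were lower with no overlap, where 4.49% of all tested genes were, with a median of -0.03 and sip-1, the highest in CPM, at -0.14 ± 0.14. At day 5 none of the 18 was lower with no overlap, 2 were under 0 and the median was 0.36. Cytosolic ribosomal protein genes had a median of -0.13. Their summed level was 95600 to 96800 CPM with M05B5.5 and 89200, 129000 and 94000 CPM with T14F9.5, and without the second library the median was 0.08. Genes of the larval moult and apical matrix had a median of 0.45 and no call. They summed to 449, 520 and 592 CPM against 408, 272 and 497 CPM, so the groups overlapped, and the median was 0.28 without the second T14F9.5 library.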

How the data were processed

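Per the labels' protocols, total RNA of whole worms went into Illumina's TruSeq kit (v2). Per the submitters' processing notes, the tools were bcl2fastq 1.8.4, STAR 2.4.1d and featureCounts 1.4.6-p4, with the build WBcel235. The strand setting, the annotation release and the handling of reads with several positions are not given in the sources used here. The values used are raw counts, whole reads per gene as deposited and not normalized. The deposited RPKM table was not used. Every column of the counts table belongs to a sample of the series.

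Groups follow the source labels. Replicates are numbered in accession order, which pairs no samples. The second T14F9.5 and the first L4440 library of day 1 have 1 index and lane in common, per their descriptions. No pair of the 6 libraries agreed within sampling noise.

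The 6 libraries were fitted with edgeR 4.0.16 in R 4.3.3: filterByExpr (minimum count 10), TMM factors, robust quasi-likelihood test, prior count 2, 4 residual degrees of freedom, common dispersion 0.02, Benjamini-Hochberg adjusted p under 0.05. The standard error is the log2 fold change divided by the square root of F. "No overlap" means that all 3 libraries of a group lie on the same side of all 3 of the other. DESeq2 1.42.0 was an alternative and gave no adjusted p for 1 gene. The day-5 comparison and the plasmid by age interaction were fitted in the same way. No lane term could be fitted at day 1. Positions and names are those of Ensembl 115 (WBcel235), where 46449 of 46748 identifiers were found, and genes without annotation took 0.106% to 0.152% of the counts. Figures were drawn with matplotlib 3.10.9.

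Simulated counts of this comparison held 13595 genes, with 50 changed at each fold. The steps recovered 36% of those at 1.5-fold, 98% at 2-fold, 100% at 4-fold and 98% at 8-fold, with 13 false calls. These rates are not split by CPM, so they are not read as rates for the real libraries or for genes at low CPM. In the real libraries edgeR called 5 genes of at least 2-fold. It did not call argk-1 (2.25-fold, adjusted p = 0.0634) or fbxb-65 (3.92-fold, adjusted p = 0.0565).

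The compared groups and the 50 gene lists were chosen with earlier results of these data known. Named by rule were hlh-2, lin-32, fbxb-38, arrd-1 and argk-1, the called genes of largest change with at least 5 CPM in the higher group and no overlap, and for each list described up to 4 called members or, with none called, the one with the highest CPM. All other genes, WBGene00010240 among them, were chosen after their values were seen.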

Additional observations from a re-analysis of the deposited data

How the results depend on the processing

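The count of 6 called genes, 5 of them at least 2-fold, was the same with RLE or upper-quartile factors, a minimum count of 50 or a fit that is not robust. DESeq2 called 59 (35 at least 2-fold), edgeR without a filter on low counts 20 (15), and with an offset for gene length 30 (17). Fewer were called when libraries outside the comparison shared the fit: 1 (1) with all 18 libraries and 3 (3) with the 9 of day 1, where hlh-2 had an adjusted p of 0.0564. Leaving out each library in turn gave 1 to 16 calls (1 to 9 at least 2-fold). The 16 came without the second T14F9.5 library, and hlh-2 was the 1 call without any other. The causes of these shifts were not tested. The interaction count of 0 was also 0 by DESeq2 and was 1 without the day-5 libraries numbered 1. No called gene changed direction, but 67 of 749 medians of gene lists under the alternatives changed sign, none of them above 0.17 in size as reported, among them ribosomal proteins (-0.13 to 0.08) and glutathione S-transferases (-0.11 to 0.02) without the second T14F9.5 library. Of 708 values of named genes under the alternatives 599 kept direction and side of the threshold, 76 newly passed it and 33 lost it, and 25 of the medians moved by more than the spread between replicates. Chosen after seeing the data, DESeq2 without the second T14F9.5 library called 59 genes, 31 of them shared with the 59 above. The number of DESeq2-lower genes with such a neighbour was 11 within 5 kb and 22 within 50 kb. No paired analysis was possible because the labels give no replicate numbers. Each group has 3 libraries, and at CPM near 1 a library holds few reads of a gene, which limits the F-box B values.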
